A study of Mus musculus with 4 samples.

Results

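The promoters described here were open in WT mouse liver and carried the histone variant H2A.Z on both sides of the transcription start site (TSS). They were selected on the WT peak lists of 2 assays. A member is the TSS of a GENCODE vM21 protein-coding gene on chromosomes 1 to 19 that has no protein-coding TSS on the opposite strand within 1 kb. It has a WT ATACseq peak overlapping the window of 250 bp on either side of the TSS, at least 1 WT H2A.Z summit 1 to 500 bp upstream and at least 1 such summit 1 to 500 bp downstream. Of 20807 coding TSSs, 2321 were left out for an opposite-strand coding TSS, and 1601 of the 18486 eligible TSSs were members. That is 8.66% of the eligible TSSs (Wilson 95% interval 8.26 to 9.07), 40.9% of the 3912 eligible TSSs with a WT ATACseq peak and 57.5% of the 2782 with WT summits on both sides. Such intervals cover counting error only.

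The series compared H2A.Z and accessible DNA in livers with and without Uhrf1, a protein needed to copy DNA methylation at cell division. ATACseq, which marks accessible DNA by transposase insertion, and H2A.Z ChIPseq were each run on 1 WT and 1 Uhrf1hepKO liver. All were male C57Bl/6 mice aged 8 to 12 weeks on a normal diet, with livers taken in the morning. WT mice were Uhrf1-fl/fl, and Uhrf1hepKO mice were Uhrf1-fl/fl;Alb:Cre, in which the albumin promoter drives Cre in hepatocytes while other liver cells keep the gene. The same 2 livers gave both assays, so each genotype and assay has 1 library, no difference between the livers can be tested, and the effect of Uhrf1 loss and the difference between any 2 mice cannot be told apart.

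Active promoters in animals usually have a nucleosome-depleted stretch where the transcription machinery assembles, bordered by well-placed nucleosomes. H2A.Z replaces the ordinary histone H2A in these bordering nucleosomes and is put there by the SRCAP and p400 remodelling complexes. The first nucleosome inside the gene is called +1 and the first on the other side of the depleted stretch is called -1. H2A.Z is found mostly where DNA is unmethylated, and promoters rich in CpG are its usual place.

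For 6 members the 250 bases just upstream of the TSS are printed 5′ to 3′ on the gene's strand, from the GRCm38 reference, because they are the extremes of the measurements that follow. Lztfl1 (chr9:123717698-123717947) had the highest WT ATACseq fold. Rps26 (chr10:128626748-128626997) had the highest H2A.Z fold on its weaker side. Lims1 (chr10:58323216-58323465) had the widest and Cldn23 (chr8:35826560-35826809) the smallest distance between flanking summits. Timm22 (chr11:76406702-76406951) had the largest excess of downstream over upstream fold, and Tma16 (chr8:66486531-66486780) the largest excess of the opposite kind. Capitals mark matches to any of 10 motifs searched on both strands.
Lztfl1: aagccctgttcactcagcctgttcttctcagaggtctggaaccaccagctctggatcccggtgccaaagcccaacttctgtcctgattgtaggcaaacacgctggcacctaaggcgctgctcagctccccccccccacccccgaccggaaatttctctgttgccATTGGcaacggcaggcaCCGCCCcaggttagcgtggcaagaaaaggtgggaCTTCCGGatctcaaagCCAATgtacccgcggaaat
Rps26: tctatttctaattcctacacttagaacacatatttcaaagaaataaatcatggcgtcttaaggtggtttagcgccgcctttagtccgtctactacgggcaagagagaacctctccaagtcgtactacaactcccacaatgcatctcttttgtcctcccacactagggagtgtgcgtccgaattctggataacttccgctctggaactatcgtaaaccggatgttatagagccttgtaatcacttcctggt
Lims1: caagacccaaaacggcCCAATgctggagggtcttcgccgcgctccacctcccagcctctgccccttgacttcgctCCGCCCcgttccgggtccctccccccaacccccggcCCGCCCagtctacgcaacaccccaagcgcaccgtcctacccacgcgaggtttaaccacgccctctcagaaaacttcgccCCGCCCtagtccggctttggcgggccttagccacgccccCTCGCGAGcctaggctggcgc
Cldn23: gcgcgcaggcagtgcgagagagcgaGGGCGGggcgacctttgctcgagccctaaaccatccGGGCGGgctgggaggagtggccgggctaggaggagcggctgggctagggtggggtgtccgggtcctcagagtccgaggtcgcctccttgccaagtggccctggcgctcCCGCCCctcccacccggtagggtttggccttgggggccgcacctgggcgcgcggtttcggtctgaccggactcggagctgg
Timm22: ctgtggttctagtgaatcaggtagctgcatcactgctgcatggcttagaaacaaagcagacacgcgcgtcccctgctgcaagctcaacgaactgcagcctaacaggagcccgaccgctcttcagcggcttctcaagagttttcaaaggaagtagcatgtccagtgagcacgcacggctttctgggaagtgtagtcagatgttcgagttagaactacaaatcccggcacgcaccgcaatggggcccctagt
Tma16: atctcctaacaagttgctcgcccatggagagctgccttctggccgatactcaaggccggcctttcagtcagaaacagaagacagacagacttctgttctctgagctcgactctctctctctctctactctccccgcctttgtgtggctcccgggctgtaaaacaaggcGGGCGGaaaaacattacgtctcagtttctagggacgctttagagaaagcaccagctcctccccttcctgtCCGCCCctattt
Positions count back from -1, the last base printed. Lztfl1 held a CCAAT box at -86 and another at -19, a GC box at -69 and an ETS-type site at -35. Lims1 held 3 GC boxes, a CCAAT box and, at -21, the palindrome CTCGCGAG. Cldn23 held 3 GC boxes and Tma16 held 2, while Rps26 and Timm22 held none of these letters in this stretch. GC content ran from 44.4% in Rps26 to 72.4% in Cldn23.

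The 4 peak lists were of like size within each assay. They held 10758 ATACseq peaks in WT and 10972 in Uhrf1hepKO, and 51702 H2A.Z peaks in WT and 47391 in Uhrf1hepKO. The lists give no read totals, so depth is unknown. Fold is the peak's enrichment over local background as the peak caller wrote it, and is compared only within a list. The labelled tissue was checked at the 30 eligible TSSs of a fixed list of 32 marker genes. None of the 8 hepatocyte markers (Alb and Ttr among them) had a WT ATACseq peak within 250 bp or a WT H2A.Z summit within 500 bp, and none of the 30 markers of any liver cell type had a WT ATACseq peak there. None was a member, so these lists do not show the tissue by its defining genes.

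In WT, the nearest upstream summit of the members lay at a median of 249 bp (quartiles 193 and 340) from the TSS and the nearest downstream summit at 174 bp (quartiles 130 and 310). Both distributions had a sharp top. Upstream, 206 members had their nearest summit at 176 to 200 bp, and downstream 266 had it at 126 to 150 bp. The bins within 50 bp of the TSS held at most 3 members upstream and 11 downstream. The 500 bp limit and the presence of summits come from the rule, but the places inside the window do not. Downstream the count fell to 51 members at 276 to 300 bp and was 83 at 301 to 325 bp, and 59 members lay in the last bin, at 476 to 500 bp.

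**Figure D1:**
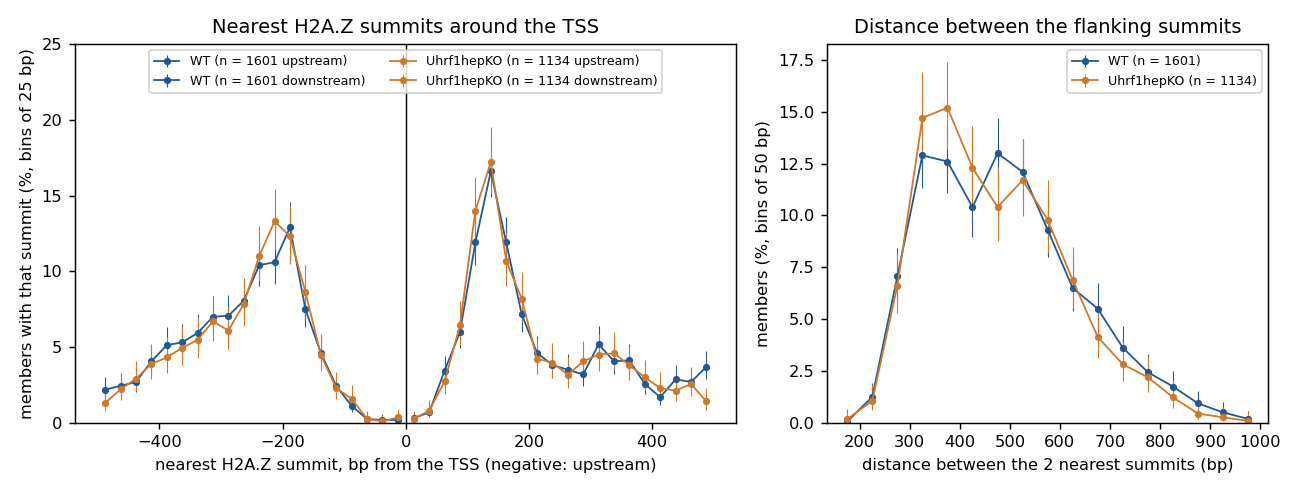
Left, percent of members with the nearest H2A.Z summit in each 25 bp bin of distance from the TSS, in WT (1601 members) and in Uhrf1hepKO (the 1134 members with summits on both sides there). Right, the distance between the nearest upstream and downstream summits in 50 bp bins. Bars are Wilson 95% intervals. The tops lie near 200 bp upstream and near 140 bp downstream in both livers.

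The distance between the 2 nearest WT summits had a median of 471 bp, with quartiles 364 and 579 and a range of 188 to 978 bp. The fullest bins were 301 to 350 bp with 206 members and 451 to 500 bp with 208. Between them, 401 to 450 bp held 166, and the intervals of these bins overlap. ATACseq peak width did not track it across members (Spearman rho 0.01, n = 1601 members of the same 2 WT libraries). Promoters with WT summits on both sides but no ATACseq peak had a smaller distance, with a median of 393 bp over 1181 promoters.

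The upstream side was the stronger of the pair in most members. The highest WT fold had a median of 8.04 upstream (quartiles 6.34 and 9.99) and 5.85 downstream (quartiles 4.87 and 7.31). These correspond to percentiles 87.5 and 63.7 of the WT H2A.Z list. Upstream was higher in 1195 members (74.6%, 72.5 to 76.7), downstream in 356, and 50 were equal. Peaks were also wider upstream, with a median of 320 bp against 147 bp. The folds of the 2 sides were only weakly related across members (rho 0.13). In Uhrf1hepKO, upstream was higher in 817 of the 1134 members with both sides (72.0%, 69.4 to 74.6). Of the members with upstream higher in WT and both sides listed in Uhrf1hepKO, 729 of 822 (88.7%) had upstream higher there too, and of those with downstream higher, 199 of 278 (71.6%) kept that order. The promoters with summits on both sides and no WT ATACseq peak had upstream higher in 68.3% in WT and 70.5% in Uhrf1hepKO, so the asymmetry was present without a listed ATACseq peak.

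The WT ATACseq peak of the members had a median width of 308 bp and its centre lay 9 bp downstream of the TSS at the median (quartiles -67 and 92). It covered the TSS itself in 1327 members (82.9%, 81.0 to 84.7). In open promoters with a summit on 1 side the centre was at -32 bp and the TSS was covered in 74.2%, and in open promoters with no summit it was at -84 bp with 60.5% covered. In 809 members (50.5%) the ATACseq peak lay wholly between the nearest upstream and the nearest downstream summit. The upstream summit was inside the peak in 14.6% and the downstream summit in 37.5%. In Uhrf1hepKO the peak lay wholly between the nearest summits in 445 of the 874 members with all 3 features (50.9%).

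The next question was how many members had the same features in the Uhrf1hepKO liver. An ATACseq peak within 250 bp was listed for 1236 members (77.2%, 75.1 to 79.2) against 19.2% of all eligible TSSs. Summits on both sides were listed for 1134 (70.8%, 68.6 to 73.0; background 13.3%). All 3 features were listed for 874 (54.6%, 52.1 to 57.0; background 6.96%). An upstream summit was present at 1482 members (92.6%; background 29.8%) and a downstream summit at 1216 (76.0%; background 19.3%). The backgrounds are low because most eligible TSSs had no peak in any list, so the neighbouring classes are the closer comparison. Fewer cells with a feature and less signal per cell cannot be told apart in bulk liver.

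**Figure D2:**
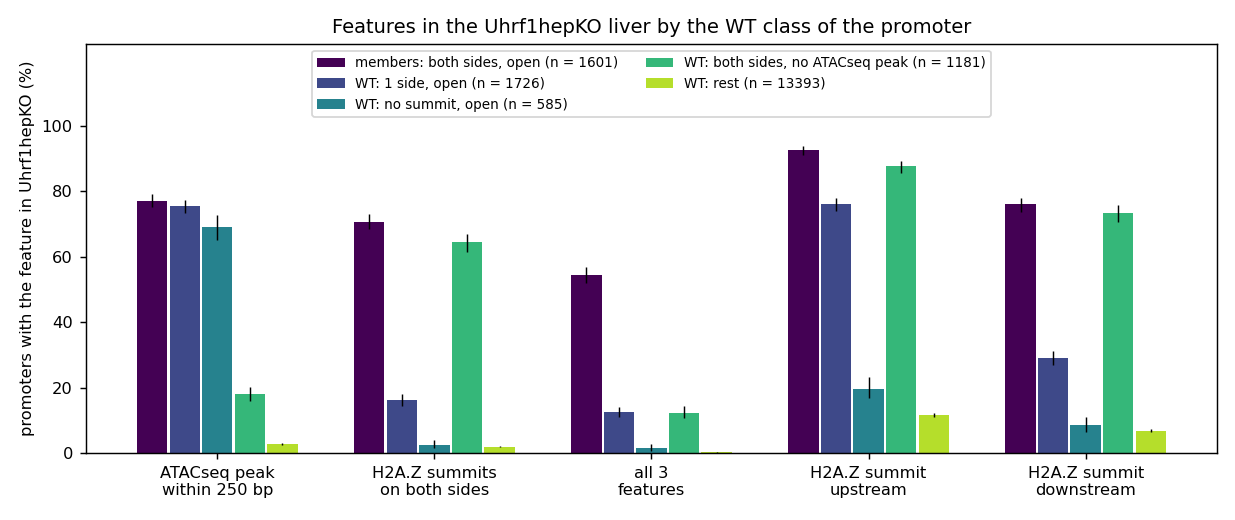
Percent of promoters with each feature in the Uhrf1hepKO lists, by the class of the promoter in WT, with Wilson 95% intervals. Members and the other open classes had ATACseq peaks at 69.1 to 77.2%, while summits on both sides were found at 70.8% of members and 64.4% of promoters chosen for both summits without an ATACseq peak.

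The ATACseq peak was found again at 77.2% of members (75.1 to 79.2), 75.4% (73.3 to 77.4) of open promoters with a summit on 1 side and 69.1% (65.2 to 72.7) of open promoters with none. The intervals of the first 2 overlap and that of the last lies below them. Summits on both sides were listed in Uhrf1hepKO at 16.2% of the open promoters with 1 side and at 2.56% of those with none. They were listed at 64.4% (61.6 to 67.0) of the promoters with both summits and no WT ATACseq peak, below the members' 70.8%. These comparisons were not matched for WT fold. The median WT H2A.Z fold was 7.07 upstream and 5.61 downstream in that class, against 8.04 and 5.85 in the members. The median WT ATACseq fold was 4.47 in open promoters with no summit and 4.77 in the members. A set chosen in one library keeps fewer features in another, so the rule was also applied to the Uhrf1hepKO lists and read in WT. Of the 1286 promoters chosen there, 85.6% (83.6 to 87.4) had the WT ATACseq peak, 79.4% (77.1 to 81.5) had both WT summits and 68.0% (65.4 to 70.5) had all 3, each a higher share than in the direction from WT. The last share counts the same 874 promoters in both directions. It is higher here because fewer promoters were chosen in Uhrf1hepKO (1286 against 1601). The other differences were not tested.

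Where features were missing, it was mostly 1 of them. In Uhrf1hepKO, 332 members (20.7%) had the ATACseq peak and a summit on 1 side, 260 (16.2%) had both summits without the ATACseq peak, 98 had a summit on 1 side only, 30 had the ATACseq peak only and 7 had nothing. The missing side was usually downstream. Counting summits alone, with or without the ATACseq peak, 348 members (21.7%, 19.8 to 23.8) had the upstream but not the downstream summit. Another 82 (5.12%, 4.15 to 6.31) had the downstream but not the upstream summit, and 37 lacked both.

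The strength of the WT peak went along with whether it was found again. Among downstream sides with a WT fold under 5, 50.1% had a Uhrf1hepKO summit, against 74.2% for folds of 5 to 6, 87.6% for 6 to 7, 92.5% for 7 to 8 and 98% for 8 to 10. Upstream sides had 68.1% under 5, 83.9% for 5 to 6 and 95.8 to 98.2% above 6. The interval of the downstream side lay below that of the upstream side at WT folds under 5 and at 6 to 7, and the intervals overlapped at 5 to 6 and above 7. Downstream sides not found again had a median WT fold of 4.87, against 6.34 for those found. The ATACseq peak showed the same order, found again at 216 of the 401 members with the lowest WT ATACseq fold (53.9%) and at 378 of the 400 with the highest (94.5%). The ATACseq fold did not go along with the summits, which were found on both sides at 72.6% of the lowest and 68% of the highest of these sets.

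**Figure D3:**
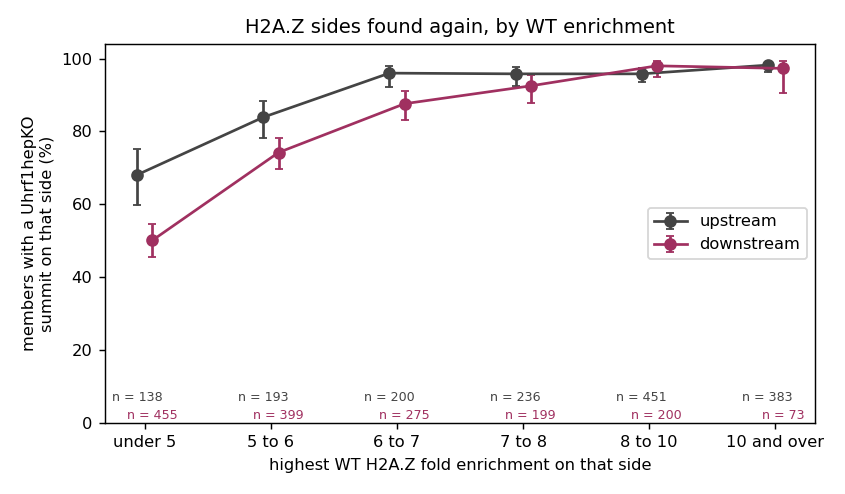
Percent of members with a Uhrf1hepKO summit on a side, by the highest WT H2A.Z fold on that side, with Wilson 95% intervals and the number of members under each point. Both sides were at 87.6% or more from a fold of 6 on, and the downstream points lie below the upstream ones at folds under 8.

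A missing summit did not always mean an uncovered place. Of the 119 upstream sides with no Uhrf1hepKO summit in the window, 54 (45.4%) had their WT summit position covered by a Uhrf1hepKO H2A.Z peak whose summit lay elsewhere. For the 385 downstream sides this was 60 (15.6%). Of the 365 members with no Uhrf1hepKO ATACseq peak within 250 bp, 7 had one within 500 bp and 12 within 1 kb.

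Where summits were present in both livers, most lay close to each other and some did not. For the 1134 members with both sides in both livers, the distance between nearest summits had a median of 455 bp in WT and 450.5 bp in Uhrf1hepKO, and the difference within a member had a median of 0 bp with quartiles -27 and 27. The absolute difference had a median of 27 bp, an upper quartile of 129.5 bp and a maximum of 488 bp, and the distances in the 2 livers had a Spearman rho of 0.66. A Uhrf1hepKO summit lay within 50 bp of the upstream WT summit in 78.8% of members (76.7 to 80.7). For the downstream summit this was 62.2% (59.8 to 64.6), against 53.4% for all 50665 WT summits on chromosomes 1 to 19. That comparison was not matched for fold, and the members' highest folds lay at median percentiles 87.5 upstream and 63.7 downstream of the WT list. Among summits with a partner within 100 bp, the median shift was 10 bp upstream, 11 bp downstream and 13 bp for all summits. Folds were also related across members between the livers, with Spearman rho of 0.83 upstream (n = 1482), 0.76 downstream (n = 1216) and 0.63 for the ATACseq peak (n = 1236). The points share the same 2 libraries of an assay and their local background.

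The nearest downstream summit had 1 clear top, at 126 to 150 bp in both livers, and a long tail beyond 250 bp. It lay within 250 bp of the TSS in 1064 members (66.5%) and beyond in 537 (33.5%), a division set after the positions were seen. Where the near group had a downstream summit in Uhrf1hepKO, the nearest was again within 250 bp in 733 of 850 (86.2%, 83.8 to 88.4). In the far group 101 of 366 (27.6%, 23.3 to 32.4) had a Uhrf1hepKO summit within 250 bp. Any downstream summit within 500 bp was listed in Uhrf1hepKO at 68.2% (64.1 to 72.0) of the far and 79.9% (77.4 to 82.2) of the near group, at median WT downstream folds of 5.61 and 5.85. The ATACseq peak was found at 76.7% and 77.4%. Another coding transcript of the same gene started 51 to 500 bp downstream in 41.5% (37.4 to 45.7) of the far and 37.6% (34.7 to 40.5) of the near group against 26.6% (26.0 to 27.3) of all eligible TSSs. The intervals of both groups lie above that of all eligible TSSs and overlap each other. By annotation, the nearest downstream summit lay in an intron in 725 members (45.3%), in an untranslated exon in 556 (34.7%), in a coding exon in 319 (19.9%) and beyond the gene in 1.

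Individual members show how far the layout varied. Lztfl1, whose product controls traffic of the BBSome complex in cilia, had a WT ATACseq fold of 11.7 and a Uhrf1hepKO fold of 13.5. Its summits lay 249 bp upstream (fold 9.99) and 260 bp downstream (4.14) in WT and at 237 bp (10.7) and 246 bp (6.27) in Uhrf1hepKO, so all 3 features were present in both livers. A further downstream summit lay at 433 bp (4.39) in WT and at 463 bp (5.11) in Uhrf1hepKO. Parp6, an ADP-ribosyltransferase gene, had ATACseq folds of 11.3 and 8.89. Its WT summits at 346 bp (11.7) and 393 bp (7.56) were followed in Uhrf1hepKO only by the upstream one, at 308 bp (10.7). 9930104L06Rik had ATACseq folds of 9.56 and 8.57 and equal WT folds of 7.07 on both sides. These 3 had the highest WT ATACseq folds of all members.

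**Figure D4:**
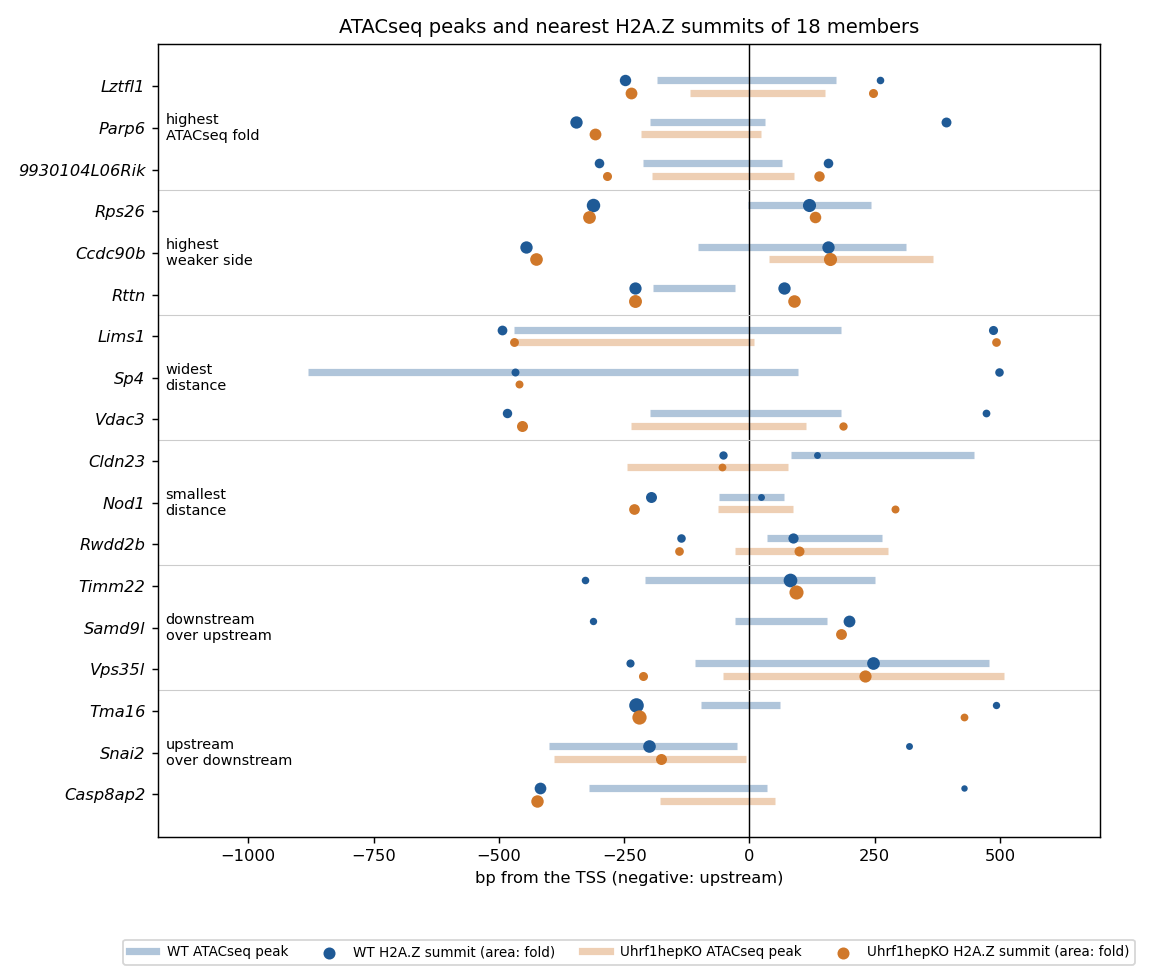
ATACseq peaks (bars) and nearest H2A.Z summits (points, with area in proportion to the highest fold on that side) of 18 members named by fixed rules, by distance from the TSS in bp, in WT and Uhrf1hepKO. Lims1 shows the widest and Cldn23 the smallest spacing, and Timm22, Samd9l, Tma16, Snai2 and Casp8ap2 show 1 strong side each.

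Rps26, which encodes a protein of the small ribosomal subunit, was strong on both sides, with WT folds of 13.9 at 313 bp upstream and 13.2 at 119 bp downstream. In Uhrf1hepKO they were 12.5 at 321 bp and 10.2 at 130 bp, but its ATACseq peak (WT fold 4.14) was not listed there. Ccdc90b, a coiled-coil protein gene, had 11.7 on both sides in WT and 12.3 and 13.2 in Uhrf1hepKO. Rttn, a centriole protein gene, had 11.5 and 11.7 in WT, 12.8 and 12.1 in Uhrf1hepKO, and no ATACseq peak in the latter. Strong H2A.Z thus occurred with modest ATACseq peaks, of fold 3.65 to 4.29 in WT in these 3.

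At Lims1, the gene of an adaptor in integrin signalling, the summits lay 978 bp apart in WT and 961 bp apart in Uhrf1hepKO around an ATACseq peak of 653 and 482 bp. At Sp4, a GC box-binding factor gene, the WT distance was 965 bp, and Uhrf1hepKO had only the upstream summit, at 460 bp. At Vdac3, the gene of a channel in the mitochondrial outer membrane, the distance was 956 bp in WT and 640 bp in Uhrf1hepKO, where a summit was listed 187 bp downstream. The smallest distance was 188 bp, at the claudin gene Cldn23, whose downstream WT summit (fold 3.66) had no counterpart. Nod1, a sensor of bacterial cell wall fragments, had 221 bp in WT and 521 bp in Uhrf1hepKO. Its WT downstream summits lay at 24 bp (fold 3.41) and 271 bp (3.66), and in Uhrf1hepKO the first had no counterpart and the nearest lay at 290 bp (3.49). Rwdd2b had 223 and 238 bp. In 4 of these 6 the layout differed on the downstream side, where the nearest WT summit had a fold of 3.41 to 5.61, while the downstream summits of Lims1 and Rwdd2b, with WT folds of 6.34 and 8.04, were found again 6 and 11 bp away.

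Timm22, the pore subunit of a translocase in the inner mitochondrial membrane, had a WT fold of 4.39 upstream and 14.4 downstream, a ratio of 3.28. In Uhrf1hepKO the downstream summit was listed with a fold of 15.3 and neither the upstream summit nor the ATACseq peak was. Samd9l, an interferon-induced gene, had 4.14 and 10.7 in WT and only the downstream summit (9.06) in Uhrf1hepKO, without an ATACseq peak. Vps35l, a subunit gene of the retriever complex, had 5.12 and 12.4 in WT, 6.27 and 11.4 in Uhrf1hepKO, and an ATACseq peak in both. At all 3 the strong side was found again. Of the opposite kind was Tma16, a ribosome assembly factor gene, with 16.3 upstream and 4.14 downstream in WT and 15.6 and 4.65 in Uhrf1hepKO without an ATACseq peak. Snai2, a repressor of epithelial genes, had 12.2 and 3.66 in WT, and Casp8ap2, which acts in histone mRNA processing, had 10.5 and 3.17. Both had an ATACseq peak and only the upstream summit in Uhrf1hepKO, with folds of 9.30 and 11.9.

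The 7 members with no listed feature in Uhrf1hepKO included Cnot8, a subunit gene of the CCR4-NOT deadenylase, Bbs10, a chaperonin-like ciliary gene, Rbm34, an RNA-binding protein gene, the nuclear pore gene Nup210 and Fbxo32, a ubiquitin ligase subunit gene. Their WT ATACseq folds were 4.97, 4.29, 4.17, 3.81 and 3.66 in that order. Their WT H2A.Z folds were 3.90 to 6.34 apart from the upstream side of Rbm34 at 10.7. The other 2, Abl1 and Cited2, which are named here after their values were seen, had upstream folds of 9.99 and 9.26, so 3 of the 7 had a strong upstream side. Over all members, an upstream fold of 10 or more, as at Rbm34, was found again in 376 of 383. A fold of 8 to 10, as at Abl1 and Cited2, was found again in 432 of 451.

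The share of members varied between gene lists around the 8.66% of all eligible TSSs. Members made up 12 of 34 RNA polymerase II and general transcription factor genes (35.3%, 21.5 to 52.1), 8 of 22 Mediator genes (19.7 to 57.0%) and 8 of 27 aminoacyl-tRNA synthetase genes (15.9 to 48.5%). They made up 10 of 38 proteasome genes (15.0 to 42.0%), 11 of 45 mitochondrial ribosomal protein genes (14.2 to 38.7%), 15 of 64 cytosolic ribosomal protein genes (14.7 to 35.1%) and 9 of 52 oxidative phosphorylation genes (9.38 to 29.7%), all with intervals above 8.66%. The interval of the splicing factor genes, with 4 of 32 (4.97 to 28.1%), includes it. Numbered zinc finger genes, mostly DNA-binding repressors, gave 97 of 354 (27.4%, 23.0 to 32.3). Of the genes of H2A.Z and its exchange machinery, 6 of 15 were members (40%, 19.8 to 64.3). Taking 3 counts as the limit that a count of 0 allows, serpins gave 0 of 58, which allows a share of up to 5.17% (the Wilson bound drawn in the plot is 6.21%), hepatocyte transcription factors 0 of 16 (up to 18.8%), DNA methylation genes 0 of 11 (up to 27.3%) and olfactory receptors 0 of 1127 (up to 0.266%). Except for the olfactory receptors and serpins, these limits include 8.66%. Cytochrome P450 genes gave 2 of 98 (0.561 to 7.14%) and solute carriers 19 of 326 (5.83%, 3.76 to 8.92).

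**Figure D5:**
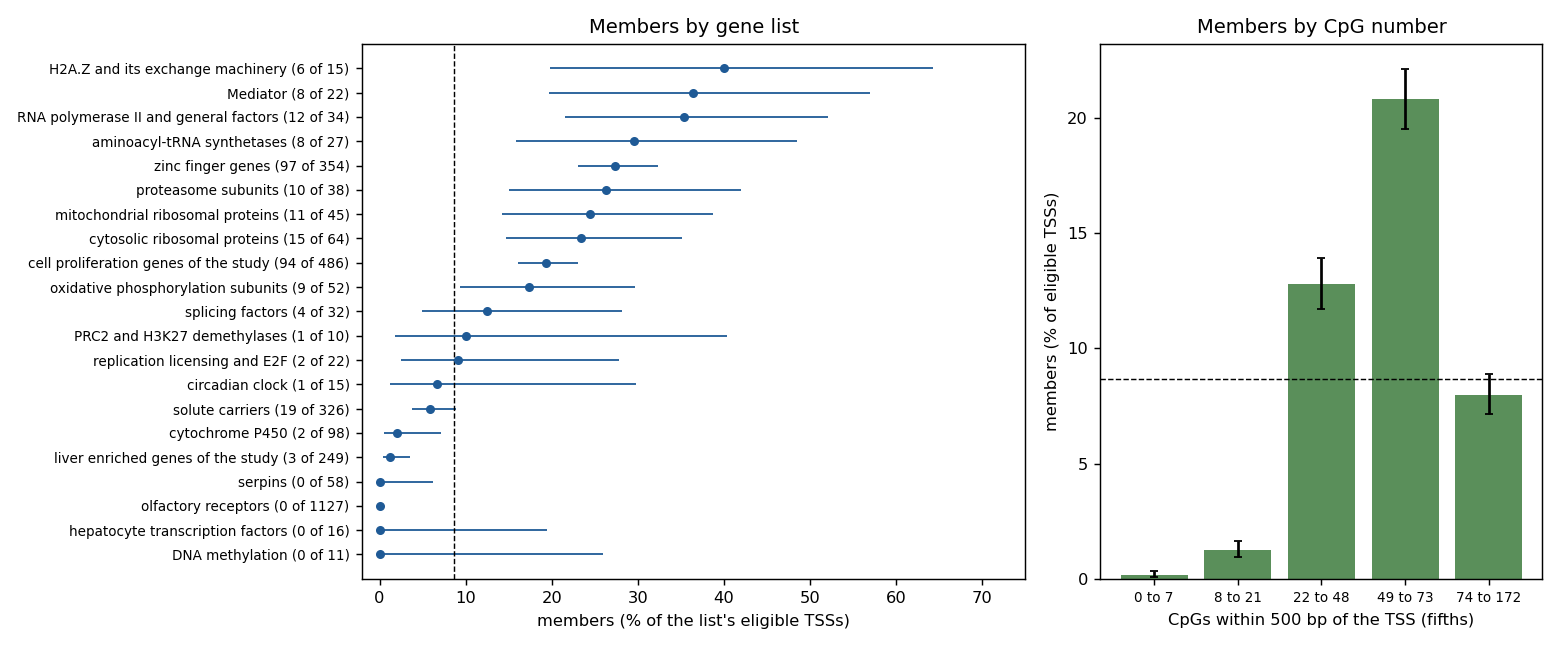
Left, percent of each gene list's eligible TSSs that were members, with the number of members. Right, the same percent in 5 ranges of CpG number within 500 bp of the TSS. Bars are Wilson 95% intervals and the dashed line is 8.66%, the share among all eligible TSSs.

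Part of this spread came with the share of open promoters. Among open promoters only, where members made up 40.9% in all, the share was 67.4% for zinc finger genes (97 of 144) and 70.6% for RNA polymerase II and general factors (12 of 17). It was 36.6% for cytosolic ribosomal proteins (15 of 41) and 33.3% for oxidative phosphorylation (9 of 27). Replication licensing and E2F genes had 15 of 22 promoters open and 2 members, Mcm10 and Orc5, with 10 of the open ones bearing a summit on 1 side and 3 on none. Circadian clock genes had 10 of 15 open and 1 member, Per3, with 4 on 1 side and 5 on none. The median CpG number within 500 bp was 41 in zinc finger genes, 70 in the licensing list and 83 in the clock list. The liver enriched list, which the study took from a human proteome resource, gave 3 of 249 (Aadat, Spp2 and Pramef8). The study's cell proliferation list gave 94 of 486 (19.3%). The study drew this list from silenced genes in its open chromatin states. Those states were learned in part from ATACseq and H2A.Z of WT liver, which the member rule also uses. The share is therefore not independent evidence.

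The counts of members with Uhrf1hepKO features in these lists stand beside 77.2% with the ATACseq peak, 70.8% with both summits and 54.6% with all 3 over all members, and differences between lists were not tested. Of the 97 zinc finger members, 76 had the ATACseq peak, 83 had both summits and 66 had all 3. Zfp961 had WT folds of 8.04 upstream and 7.80 downstream and Uhrf1hepKO folds of 8.83 and 7.67, with ATACseq folds of 9.03 and 8.24. Of the 12 members among RNA polymerase II and general factors, 9 had the ATACseq peak, 5 had both summits and 3 had all 3. Polr2j, which encodes a polymerase subunit, had WT summits of 9.02 and 4.14 and in Uhrf1hepKO only the upstream one at 7.20, and Taf1a likewise kept only its upstream summit (7.80 in WT, 5.81 in Uhrf1hepKO). Of the 10 proteasome members 3 had all features, and Psmc4, Psma3 and Psmd6, the 3 with the highest ATACseq fold, each lacked the downstream summit, whose WT folds were 5.12, 4.63 and 4.87. Of the 8 synthetase members 7 had all features, among them Wars2 (7.07 and 7.80 in WT, 6.97 and 8.60 in Uhrf1hepKO), Iars and Pars2. Of the 11 mitochondrial ribosomal members 9 had all features, with Mrps17 at 14.9 and 6.09 in WT and 13.0 and 8.37 in Uhrf1hepKO. Of 15 cytosolic ribosomal members 8 did. Rps9 had upstream folds of 14.1 in WT and 14.2 in Uhrf1hepKO.

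Of the 15 genes of H2A.Z and its exchange machinery, 7 had WT summits on both sides and 6 of these were members, whose flanking H2A.Z comes from the rule. Ruvbl1, an ATPase of the remodelling complexes, had WT summits of 10.7 upstream and 3.41 downstream and Uhrf1hepKO summits of 10.9 and 4.65. Anp32e, the chaperone that removes H2A.Z, had 4.87 and 5.85 in WT and 7.20 and 7.44 in Uhrf1hepKO. Actr6, a SRCAP complex subunit gene, had 11.9 and 6.58 in WT and 11.2 and 7.44 in Uhrf1hepKO, without an ATACseq peak in the latter. Of the 6 members, 4 had all 3 features in Uhrf1hepKO.

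Of 12 genes listed from the study's text and supplement, Eed and Fbxo48 were members. Eed, a core subunit of the Polycomb complex that methylates H3K27, had an ATACseq fold of 4.79 in WT and 4.76 in Uhrf1hepKO. Its summits lay at 123 and 144 bp (8.77 and 3.90) in WT and at 126 and 139 bp (10.5 and 4.42) in Uhrf1hepKO. Fbxo48 had summits of 8.53 and 5.61 in WT and only the upstream one, 8.83, in Uhrf1hepKO. E2f1 was open with no summit in the window, Ezh2 was open with an upstream and Mcm2 with a downstream WT summit only, and in Uhrf1hepKO both of the latter had all 3 features. Myc had both WT summits (6.09 and 4.14) and no WT ATACseq peak. Uhrf1 had an upstream summit alone (6.58 in WT, 6.04 in Uhrf1hepKO), which is no check of the deletion. Fbp1, Hoxc10, Hoxc11, Kdm6b and Suz12 had neither an ATACseq peak nor a summit within the WT limits. The study shows Fbp1 as a gene in an open chromatin state, unlike the Hox genes. Its states were predicted from aligned reads, whereas only listed peaks near the annotated gene start were read here.

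Members had an intermediate CpG number. Within 500 bp of the TSS they held a median of 57 CpGs (quartiles 45 and 69) at a GC content of 56.3%. All eligible promoters held 36 and 54.2%. The other open promoters held more, with 73 CpGs where a summit lay on 1 side and 81 where none did, and the promoters with both summits and no ATACseq peak held 50. In ranges of CpG number over all eligible promoters, members made up 0.150% at 0 to 7 CpGs, 1.27% at 8 to 21, 12.8% at 22 to 48, 20.8% at 49 to 73 and 7.98% at 74 to 172, so their share fell again at the CpG-richest promoters. Members with all 3 features in Uhrf1hepKO had a median of 54 CpGs and the rest 61.

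Motif letters were counted in 300 bases around the TSS, 250 before it and 50 from it on, on both strands. The GC box GGGCGG was in 61.2% of members and 41.2% of all eligible promoters, the CCAAT box in 49.5% and 38.4%, the ETS-type site CCGGAAG in 22.4% and 9.28%, and the E-box CACGTG in 10.9% and 7.52%. The NRF1-type site GCGCATGCG was in 6.37% and 1.99%, the cyclic AMP element TGACGTCA in 6.00% and 2.23%, the YY1-type site AAGATGGC in 5.50% and 2.52%, and CTCGCGAG in 2.56% and 0.990%. The TATA box TATAAA was in 6.25% against 13.7% and the forkhead-type site TGTTTAC in 2.81% against 3.22%. The intervals of members and all eligible promoters were apart for all of these except the forkhead-type site. Beside the other open promoters the picture was different. The GC box was in 70.0% of those with a summit on 1 side and 74.2% of those with none, both above the members' 61.2% (58.8 to 63.6). The E-box was in 13.8% (12.2 to 15.5) and 15.0% (12.4 to 18.2), and the members' interval (10.9%, 9.49 to 12.6) overlaps both. The NRF1-type site was in 6.26% of open promoters with 1 side, close to the members' 6.37%. Open promoters without summits held the ETS-type site in 13.5% (11.0 to 16.5), and promoters with both summits and no ATACseq peak held it in 23.0% (20.7 to 25.5), close to the members' 22.4% (20.4 to 24.5). Of open promoters with a summit on 1 side, 328 of 1726 held it (17.2 to 20.9%), an interval that overlaps that of the members. In that class the TATA box was in 5.62%, the cyclic AMP element in 5.39%, the YY1-type site in 4.87% and CTCGCGAG in 3.48%. The intervals of these motifs also overlap those of the members. The CCAAT box went along with the ATACseq peak, at 47.2% to 52.8% in the other open classes and 35.1% (32.5 to 37.9) with both summits and no ATACseq peak. Within the members it was in 59.8% (54.9 to 64.4) of the 400 with the highest WT ATACseq fold and in 35.2% (30.6 to 40.0) of the 401 with the lowest, and in 54.6% (51.3 to 57.9) of members with all 3 features in Uhrf1hepKO against 43.3% (39.8 to 47.0) of the rest. A match is a description of the letters and not of binding.

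The limits of the rule pass through a continuous range. Just inside, Cog6 and Dhx36 had a downstream summit at 500 bp, and the ATACseq peaks of Ing1 and Erap1 began 238 and 234 bp from the TSS. Just outside, the upstream summit of Arrdc4 and the downstream summit of Brf2 lay at 501 bp, and the ATACseq peaks nearest to Irak1bp1 and Zfp628 lay 255 bp away. With summits allowed only within 300 bp, 761 promoters qualified, and when peaks under the median fold of each list were dropped, 740 did. Some members may have shared peaks, since 50 of them formed 25 pairs with TSSs under 1 kb apart, such as Churc1 and Fntb. A start of a gene that does not code for protein lay on the opposite strand within 1 kb in 205 members (12.8%, 11.3 to 14.5) against 8.00% of eligible TSSs. The other open promoters were not lower, with 14.5% (12.9 to 16.2) where a summit lay on 1 side and 16.4% (13.6 to 19.6) where none did. Promoters with both summits and no ATACseq peak had 11.9%. Of the members with such a start 74.6% had the upstream side higher in WT, and of those without it 74.6% did. By chromosome, members made up from 5.22% of eligible TSSs on chromosome 15 to 12.5% on chromosome 12.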

How the data were processed

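Peaks from ATACseq and H2A.Z ChIPseq of 1 WT and 1 Uhrf1hepKO liver were analysed as deposited. For H2A.Z, chromatin was cut to single nucleosomes with micrococcal nuclease. Per the methods and labels, the authors trimmed reads (Trimmomatic, FastQC 0.11.5), aligned them to GRCm38.p4 with BWA-MEM, sorted them with Picard and called peaks with MACS2 (version, control and transposase shift not given in the sources used here). ATACseq was called in broad mode and in paired-end format although reads were single-end, which can affect peak edges. The deposited columns hold a display score, a fold enrichment ratio, and p and q values as −log10. The summit offset in the H2A.Z lists was also set by the authors. ATACseq fold averages a whole region and H2A.Z fold is at the summit. Folds are not scaled between libraries.

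TSSs came from GENCODE vM21. Peaks, summits and TSSs were matched in Python 3.11.15 with numpy 2.4.6 and pandas 2.3.3, tested on simulated data and recounted by a slower method. The strongest ATACseq peak within 250 bp and the highest fold and nearest summit on each side were used. No peak passed the end of any of the 19 chromosomes of the GRCm38 reference used for sequence. Shares carry Wilson 95% intervals (scipy 1.17.1). With 1 library per group there was no test and no p-value. Where a share was 0, the limit given is 3 counts of the total. Members and gene lists were chosen with earlier results of these data known. Genes were named by rule: the extremes of ATACseq fold, weaker-side fold, summit distance and side ratio (3 each), members with no Uhrf1hepKO feature (up to 5), up to 3 of each gene list by ATACseq fold (some not printed), the genes the study names, and promoters next to the limits. Alternatives were another TSS choice, window, peak threshold and summit definition.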

Additional observations from a re-analysis of the deposited data

How the results depend on the processing

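Under 8 alternatives, 30 of 40 values stayed within 1.5 times the count of members, or within the 95% interval of the share or median. With summits allowed only within 300 bp, 761 members were left, 74.6% with a Uhrf1hepKO ATACseq peak, 60.8% with summits on both sides and 46.1% with all 3 features, at a median summit distance of 361 bp. The narrower window itself shortens the distance and leaves less room for a summit. When peaks under the median fold of each list were dropped, 740 members were left, 70.8% with a Uhrf1hepKO ATACseq peak and 49.7% with all 3 features. With only peaks of −log10 q of at least 2, 73.5% had a Uhrf1hepKO ATACseq peak. Peak centres in place of summits gave a median distance of 552 bp. The causes of the last 3 shifts were not tested. Promoter starts from principal transcripts, an ATACseq window of 100 bp, keeping opposite-strand coding TSSs (2197 members) and equal numbers of peaks from both livers moved no value past these bounds. Of the 1684 members under principal transcripts, 1495 were members by the gene starts. No paired analysis was possible because each group has 1 library and no test was run.

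The main limit is that each genotype and assay has 1 liver and 1 library, so the spread between mice is unknown. An unlisted peak shows only that no peak passed the caller's threshold.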

Other observations

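Beyond the 500 bp window, members had a further WT H2A.Z summit 501 to 1000 bp upstream in 309 cases (19.3%, Wilson 95% interval 17.4 to 21.3) and downstream in 421 (26.3%, 24.2 to 28.5). In Uhrf1hepKO the counts were 334 (20.9%) and 402 (25.1%). Among all eligible TSSs, 11.1% had such a WT summit downstream and 1851 of 18486 had one upstream (9.59 to 10.5%). In Uhrf1hepKO, 9.30% of them had one upstream and 10.1% downstream. Open promoters with a summit on 1 side had a farther WT summit upstream in 24.6% (22.6 to 26.7) and downstream in 27.3% (25.3 to 29.5). The first interval lies above that of the members and the second overlaps it, so neither share was higher in the members than in that class. Open promoters with no summit inside 500 bp had one farther upstream in 47.7% (43.7 to 51.7) and farther downstream in 12.6% (10.2 to 15.6), so the order of the sides was the opposite of that in the members. Within the window, 1285 members (80.3%) had a single WT summit on each side, and more than 1 summit was more frequent downstream (256 members with 2, 16.0%) than upstream (73, 4.56%).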
